A study of Rattus norvegicus with 32 samples.

Results

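Metyrapone was set against saline 4 h after experimental brain injury in CA3 neurons of the rat hippocampus. The comparison takes in 2 pooled RNA samples of injured rats given metyrapone (TBI+MT) and 2 of injured rats given saline (TBI). Each pool was hybridized to duplicate arrays, so that the comparison holds 8 of the 32 arrays and 4 of the 16 pools of the series. The arrays were chosen by their sample titles alone. TBI+MT rats were Sprague-Dawley rats that received metyrapone at 100 mg/kg under the skin before fluid percussion traumatic brain injury (TBI), a pressure pulse applied to the exposed dura. TBI rats had the same injury after saline. The methods describe the animals as adult males. The labels put the injection 90 min before the injury and count the 4 h from treatment, whereas the methods give a shorter interval and count from surgery. CA3 cells that Fluoro-Jade, a stain of degenerating neurons, had not marked were cut out by laser capture, so that degenerating neurons are not represented. The design text gives 3 to 6 rats to a pool and the methods the low end of this range, and the spread between pools therefore understates that between rats. Every RNA went through 2 rounds of amplification. The other 6 groups (sham injury at 4 h, labelled untreated, TBI plus carbenoxolone (30 mg/kg) at 4 h, and the same 4 treatments at 24 h) entered the model only as a source of the common spread.

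Metyrapone blocks the last step of corticosterone synthesis in the adrenal cortex. Corticosterone, the main glucocorticoid of the rat, reaches the hippocampus through the blood and binds the glucocorticoid receptor and the mineralocorticoid receptor, which act on genes in the nucleus. Inside cells the enzyme 11βHSD1 regenerates corticosterone from its inactive form. CA3 pyramidal neurons carry both receptors and are among the hippocampal cells that injury and glucocorticoid excess are known to harm.

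Levels are normalized intensities in multiples of the median of the array, with a floor of 0.1, and each pool's value is the mean of its duplicate arrays on the log2 scale. A difference is TBI+MT minus TBI on the log2 scale, from a limma fit over all 8 groups, with its standard error (SE), and every difference and median difference given is on this scale. Of 33849 probes, 17635 reached the background criterion, above background on every array of 1 group or more, and 17619 of them could be tested, among them probes of 8294 named genes. Array medians were 19.5 to 67.1 intensity units in TBI+MT and 23.3 to 51.6 in TBI, and 45.3 to 65.9% and 47.3 to 61.6% of the probes stood above background on an array. The brightest pools were TBI+MT pool 2 and TBI pool 1, so brightness differed more within each group than between the groups. These 2 pools also correlated best with each other over probes (Pearson r = 0.966), above the 0.878 between the TBI+MT pools and the 0.863 between the TBI pools, whereas TBI+MT pool 1 and TBI pool 2 correlated least (0.746). Duplicate arrays correlated at 0.972 to 0.997. The log2 difference between duplicate arrays had an SD of 0.161 to 0.518 over probes, and that between pools one of 1.07 in TBI+MT and 1.32 in TBI, and precision is set by how few pools there are. Both TBI+MT pools and TBI pool 2 were on slides of 1 run of slide numbers in the file headers, and TBI pool 1 was on a slide of another run.

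Markers of CA3 pyramidal neurons were present in all 4 pools. Camk2b, a subunit of the calcium and calmodulin-dependent kinase of excitatory synapses, stood at 667 and 573 in TBI+MT, against 709.9 and 1223 in TBI. Its spots were saturated on 2 of 4 TBI+MT arrays and on all 4 TBI arrays, so no fold is given. Slc17a7, the vesicular glutamate transporter of pyramidal neurons, stood at 18.3 and 16.9 in TBI+MT, against 20.2 and 26 in TBI (log2 difference -0.38, SE 0.549). The 9 measured of 19 listed pyramidal markers had a summed level of 949 and 915 in TBI+MT, against 1125 and 1626 in TBI. Markers of other cells were present as well, and no marker list had a measured member near background on all 8 arrays. The 10 measured of 12 astrocyte markers summed to 322 and 436 in TBI+MT, against 566 and 1344 in TBI. The 7 of 12 oligodendrocyte markers summed to 171 and 143 in TBI+MT, against 198 and 279 in TBI, and the 13 of 18 vessel markers to 50.01 and 54.8 in TBI+MT, against 98.7 and 177 in TBI. The 9 of 15 microglia markers summed to 35.9 and 33 in TBI+MT, against 48.9 and 65.2 in TBI. In each of these 5 lists both TBI+MT pools summed to less than either TBI pool, and TBI pool 2 was the highest. The 9 of 18 interneuron markers summed to 132 and 136 in TBI+MT, against 116 and 184 in TBI, and the 2 of 7 blood markers to 3.48 and 3.34 in TBI+MT, against 2.91 and 4.58 in TBI, so that the groups overlapped in both. In a bulk sample of this kind, fewer cells of a type and less RNA per cell cannot be told apart. The part of these shifts in the gene groups described here was not tested.

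No probe passed limma at an adjusted p under 0.05 (called share 0%), and 834 had an unadjusted p under 0.05, 473 of them lower and 361 higher in TBI+MT. With no difference at all, a share of 0.05 of the 17619 probes tested would do so on average, and 834 is below that share. Phc3 had an adjusted p of 0.195, and the other genes given here had adjusted p-values of 0.736 to 0.999. With the spread between so few pools, no difference therefore passed the adjustment over all probes, and what follows gives levels and sizes. Over all probes the median difference was -0.40. For the single pairs of pools it ran from -0.08 (TBI+MT pool 2 against TBI pool 1) to -0.73 (TBI+MT pool 1 against TBI pool 2), and it was -0.25 without TBI+MT pool 1. After quantile normalization, which gives every array the same distribution, it was -0.0077. Division by the 75th percentile of the array in place of its median added 0.44 to nearly every difference and put the median at 0.036. Hence a difference near -0.40 stands at the middle of the probes, one between -0.44 and 0 changes sign with the 75th percentile, and quantile-normalized values are given beside the medians of the gene lists.

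More probes stood over 2-fold lower in TBI+MT (4417, 25.1%) than over 2-fold higher (1446, 8.21%). The split was nearly even after quantile normalization, with 1922 probes lower (10.9%) and 1817 higher (10.3%), and turned round with the 75th percentile, with 1816 lower (10.3%) and 2201 higher (12.5%). Single pools moved these counts as well. The lower probes numbered 1321 without TBI+MT pool 1 and 6998 without TBI+MT pool 2, and the higher probes 2231 without TBI pool 1 and 703 without TBI pool 2. Both TBI+MT pools lay below both TBI pools for 33.6% of the probes with all 4 values, and above both for 8.14%. Among the named genes, each by its brightest probe, the median was -0.55 (-0.11 after quantile normalization). Of these genes 78.1% had values below 0 (55.8% after quantile normalization), 28.3% stood over 2-fold lower and 4.16% over 2-fold higher. Pools did not overlap for 40.7% of them on the lower side and 4.36% on the higher side. These shares are the background for each gene list. Counts in the lists are on the median-scaled values unless stated, and in most lists fewer members were below 0 after quantile normalization. Of the lists described here, those of oligodendrocyte markers, acute phase genes, neurotrophins, GABA receptors, cytochrome P450 genes, potassium channels and blood markers had medians below 0 that were above 0 after quantile normalization and with the 75th percentile, and no other list changed side. One order of the pools was frequent: TBI+MT pool 1 was lowest and TBI pool 2 highest in 41.9% of the named genes.

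**Figure D1:**
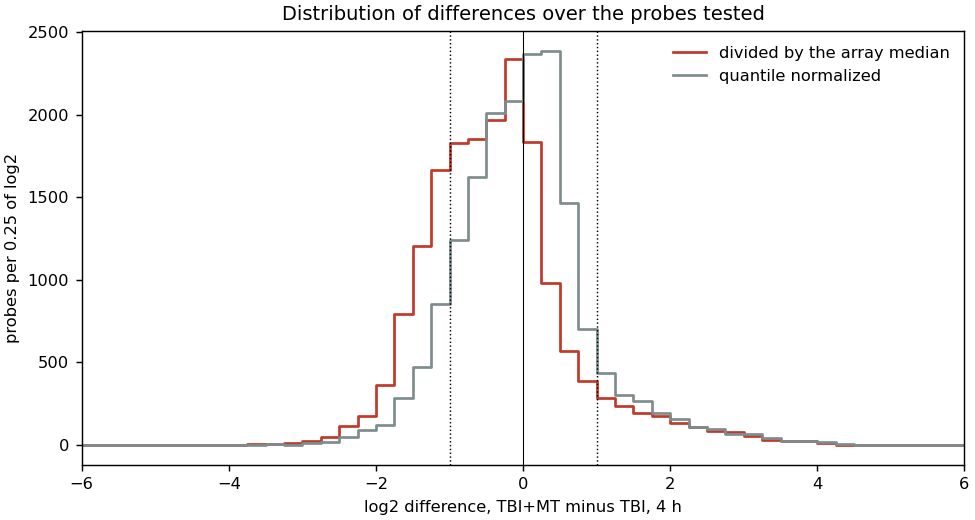
Number of probes (vertical axis) in bins of the log2 difference between TBI+MT and TBI at 4 h (horizontal axis), for values divided by the array median and for quantile-normalized values, with dotted lines at a 2-fold difference. The median-scaled values have their median at -0.40 and the quantile-normalized values at -0.0077.

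Genes that produce, bind or carry the corticosteroid signal had values on both sides of the TBI level in the metyrapone-treated rats. Hsd11b1, the gene of 11βHSD1, stood at 2.84 and 10.96 in TBI+MT, against 13.4 and 45.7 in TBI, a difference of -2.15 (SE 0.881). The 2 groups did not overlap, but their nearest pools, TBI+MT pool 2 and TBI pool 1, were close. Nr3c1, which encodes the glucocorticoid receptor, lay on the other side with 3.03 and 2.21 in TBI+MT, against 1.98 and 0.479 in TBI (2 of 4 arrays above background) and a difference of 1.41 (SE 0.656). TBI pool 1 almost reached the lower TBI+MT pool there. Nr3c2, which encodes the mineralocorticoid receptor, had 40.6 and 97.6 in TBI+MT, against 93.7 and 189 in TBI, a difference of -1.08 (SE 0.983) with overlapping groups. Fkbp5, a co-chaperone of the receptor that glucocorticoids induce, had 113 and 112 in TBI+MT, against 157 and 289 in TBI and a difference of -0.92 (SE 0.608). The TBI+MT pools were nearly equal there, and both TBI pools were above them, TBI pool 2 by more. Fkbp4, a co-chaperone that helps carry the receptor to the nucleus, had 13.5 and 25.3 in TBI+MT, against 23.8 and 1.09 in TBI (3 of 4 arrays above background). Its difference of 1.86 (SE 1.102) rested on TBI pool 2, and it was -0.37 without that pool. Crhbp, whose product binds corticotropin-releasing hormone, stood at 0.843 and 3.19 in TBI+MT (3 of 4 arrays above background), against 12.6 and 6.45 in TBI, a difference of -2.46 (SE 1.15) without overlap. In this list 6 of 15 genes were measured, 4 of them lower and 2 higher, with a median of -1.001 log2 units (-0.40 quantile-normalized).

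Genes that glucocorticoids are known to induce stood mostly lower in TBI+MT, as most named genes did. Of 25 such genes 14 were measured and 12 had values below 0, 5 of them over 2-fold. Their median was -0.90 log2 units (-0.36 quantile-normalized), and -1.39 to -0.45 over the 4 pairs of pools. Dusp1, a phosphatase that turns off MAP kinases, had 0.91 and 1.296 in TBI+MT (3 of 4 arrays above background), against 3.18 and 7.08 in TBI and the largest difference of the list, -2.13 (SE 0.906). Nfkbia, the inhibitor of NF-κB, stood at 8.41 and 16.8 in TBI+MT, against 24.1 and 65.4 in TBI (log2 difference -1.74, SE 0.802). Sgk1, a kinase that regulates ion channels, stood at 10.4 and 23.9 in TBI+MT, against 32.5 and 55.5 in TBI (log2 difference -1.43, SE 0.835). In each of these 3 genes both TBI+MT pools were below both TBI pools. Errfi1, a feedback inhibitor of the EGF receptor, stood at 36.3 and 104 in TBI+MT, against 153 and 218 in TBI (log2 difference -1.57, SE 0.977). Tsc22d3, which encodes the anti-inflammatory protein GILZ and is a standard target of the receptor, had 2.28 and 2.69 in TBI+MT, against 3.76 and 1.92 in TBI and a difference of -0.12. Klf9, another standard target, differed by 0.10, and Bcl6, a transcriptional repressor, by 0.28. The list thus held genes far below TBI together with standard targets that were near the TBI level.

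**Figure D2:**
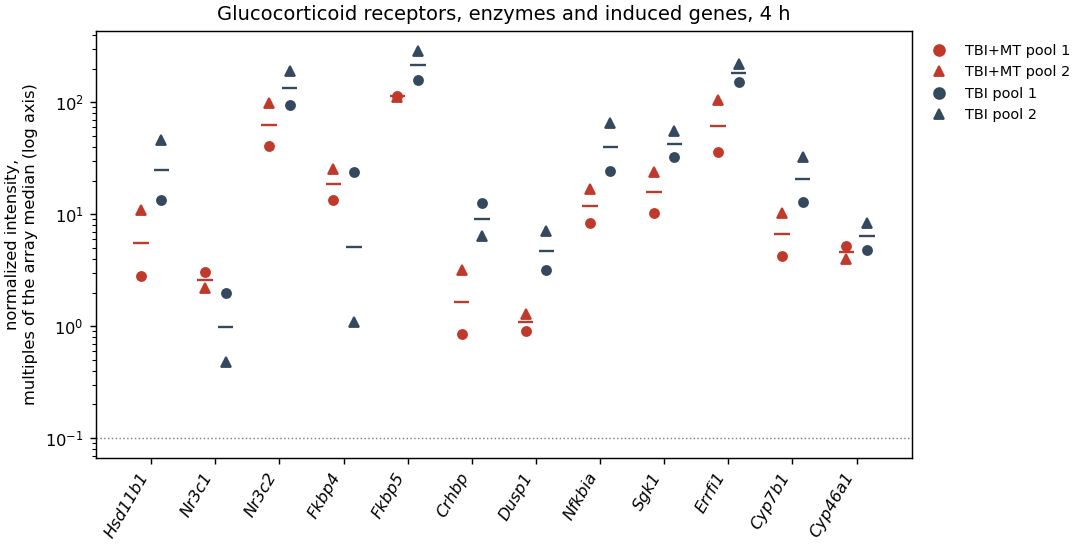
Normalized intensity of 12 genes of the corticosteroid and related lists (vertical log axis, multiples of the array median) in the TBI+MT pools (left of each pair) and the TBI pools (right), with pools as points, geometric means as bars and the floor of 0.1 as a dotted line. Both TBI+MT pools were below both TBI pools in all but Nr3c1, where both were above, and Nr3c2, Fkbp4 and Cyp46a1, which overlapped. In the whole lists both were below in 3 of 6 measured corticosteroid genes, 9 of 14 glucocorticoid-induced genes and 3 of 15 P450 genes. The share among the named genes was 40.7%.

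Immediate early genes are transcribed within minutes of neuronal activity, in part through the cyclic AMP response element that the factor CREB binds. Of 29 such genes 21 were measured, 19 with values below 0 and 9 over 2-fold lower, with a median of -0.82 log2 units (-0.38 quantile-normalized) and -1.65 to -0.22 over the pairs of pools. Egr1, a zinc finger factor, stood at 47.9 and 119 in TBI+MT, against 185 and 283 in TBI (log2 difference -1.60, SE 0.978). Nr4a1, an orphan nuclear receptor, stood at 4.22 and 9.85 in TBI+MT, against 13.5 and 27.6 in TBI (log2 difference -1.58, SE 0.895). Rgs2, a regulator of G protein signalling, stood at 24.1 and 78.6 in TBI+MT, against 92.3 and 175 in TBI (log2 difference -1.55, SE 0.977). All 3 kept the order of TBI+MT pool 1, TBI+MT pool 2, TBI pool 1 and TBI pool 2 from low to high. Ier5 differed by -1.44 (SE 0.719) and Egr4 by -1.02 (SE 0.628). Klf4 stood on the opposite side with 17.6 and 2.95 in TBI+MT, against 2.67 and 3.17 in TBI (log2 difference 1.31, SE 0.889), but its groups overlapped. Among 11 measured genes of 23 that act downstream of activity, all 11 had values below 0 and 6 stood over 2-fold lower, with a median of -1.02 log2 units (-0.54 quantile-normalized). After quantile normalization 9 of the 11 were below 0 and 2 stood over 2-fold lower. Gem, a small GTP-binding protein that lowers calcium channel activity, stood at 0.308 and 0.764 in TBI+MT (2 of 4 arrays above background), against 2.296 and 4.23 in TBI (log2 difference -2.68, SE 1.02). Rcan1, an inhibitor of calcineurin, stood at 10.8 and 21.03 in TBI+MT, against 32.6 and 65.98 in TBI (log2 difference -1.62, SE 0.683). Sik1, a kinase that restrains CREB coactivators, stood at 0.536 and 0.342 in TBI+MT (1 of 4 arrays above background), against 0.579 and 5.36 in TBI (3 of 4 arrays above background) (log2 difference -2.04, SE 0.912). Most of the gap of Sik1 came from TBI pool 2.

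The promoter windows of these lists were read from RefSeq (GRCr8), from 250 bases before to 50 bases after each gene's start. The whole element TGACGTCA, which is its own reverse complement, was found in 612 of 33469 windows (1.83%), in 4 of the 20 immediate early genes with a window, in 2 of 16 neuropeptide genes and in 1 of 21 glucocorticoid-induced genes. Of these, Maff and Cartpt had no measured probe. The glucocorticoid response element, AGAACA and TGTTCT with 3 bases between them, was found in 5 windows of all genes (0.0149%) and in none of these lists. With so few matches, its absence from lists this short carries no information. Only this exact form was searched, and only within the window. The measured genes that hold the first element are shown because their differences ran from far below the TBI level to near it, with the element in capitals.
Sst: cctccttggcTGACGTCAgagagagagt
Dusp1: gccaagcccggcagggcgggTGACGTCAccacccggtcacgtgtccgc
Jund: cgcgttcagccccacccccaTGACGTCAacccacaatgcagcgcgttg
Ier2: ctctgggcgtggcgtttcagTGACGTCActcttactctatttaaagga
Btg2: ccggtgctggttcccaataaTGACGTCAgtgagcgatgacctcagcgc
These stretches lie at chr11:90461538-90461565 on the plus strand for Sst, at chr10:17184709-17184756 on the plus strand for Dusp1, at chr16:18769965-18770012 on the minus strand for Jund, at chr19:40399287-40399334 on the plus strand for Ier2 and at chr13:48087864-48087911 on the minus strand for Btg2. The element began 124 bases before the start in Dusp1, 221 before it in Jund, 201 before it in Btg2 and 66 before it in Ier2, and at base 3 past the annotated start in Sst. Genes with the element stood far below TBI (Dusp1 at -2.13, Sst at -1.88), near the middle of the named genes (Jund at -0.51) and above it (Ier2 at -0.23, Btg2 at -0.14). A match is a description of the sequence and no sign of binding.

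Metyrapone acts on a cytochrome P450 of the adrenal, and 15 of 26 genes of the P450 family were measured in the captured cells. Their median was -0.25 log2 units (0.15 quantile-normalized), with 11 values below 0 and 4 over 2-fold lower, which is near the background. Cyp7b1, which hydroxylates neurosteroids, stood at 4.24 and 10.3 in TBI+MT, against 12.9 and 32.6 in TBI (log2 difference -1.63, SE 0.899) without overlap. Cyp4x1, a brain P450, stood at 0.946 and 2.32 in TBI+MT (2 of 4 arrays above background), against 2.65 and 5.29 in TBI (log2 difference -1.34, SE 0.692). Cyp46a1, which turns brain cholesterol into a hydroxylated form that leaves the brain, differed by -0.47 (SE 0.493) with overlapping groups. Cyp21a1, a steroid hydroxylase, was on the other side with 57.1 and 24.2 in TBI+MT, against 18.3 and 23.3 in TBI (log2 difference 0.85, SE 0.911).

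Neuropeptide genes lay on both sides of the TBI level, and 3 of them were among the lower genes with the smallest p of the comparison. Of 21 genes 15 were measured, with 7 values below 0 and 8 above and a median of 0.01 log2 units (0.10 quantile-normalized). Leaving out any 1 pool put this median below 0, at -0.70 to -0.24, as did the slide run as a block (-0.51). Both TBI+MT pools were below both TBI pools in 7 of the 15, those with values below 0, which is near the 40.7% of the named genes. Of the 15 measured genes 6, all among these 7, stood over 2-fold lower, beside 28.3% of the named genes. Npy, whose peptide dampens glutamate release in CA3, stood at 1.87 and 2.74 in TBI+MT, against 17.9 and 12.9 in TBI. Its difference of -2.75 (SE 0.632) exceeded the gap between pools of either group, all 4 arrays of each group were within 2-fold, and it was -2.29 after quantile normalization. The sham pools at 4 h were at 2.84 and 3.36, near the TBI+MT pools. Tac1, which encodes substance P, stood at 1.597 and 5.59 in TBI+MT, against 24.9 and 39.8 in TBI (log2 difference -3.40, SE 0.882, -2.93 after quantile normalization). Sst, which encodes the inhibitory peptide somatostatin, stood at 0.336 and 0.728 in TBI+MT (2 of 4 arrays above background), against 1.91 and 1.74 in TBI (log2 difference -1.88, SE 0.515). These 3 genes had the smallest p-values of the list. The sham pools at 4 h stood at 5.45 and 14.6 for Tac1 and at 1.19 and 1.55 for Sst. They lay between the TBI+MT and TBI pools, except that the lower Tac1 sham pool was just below TBI+MT pool 2. Cort, a somatostatin relative, stood at 1.995 and 5.61 in TBI+MT, against 14.95 and 8.81 in TBI (log2 difference -1.78, SE 1.698). Grp, which encodes gastrin-releasing peptide, stood at 3.32 and 2.13 in TBI+MT, against 4.94 and 12.3 in TBI (log2 difference -1.55, SE 0.85). Tac3, which encodes neurokinin B, stood at 0.455 and 0.8697 in TBI+MT (2 of 4 arrays above background), against 0.901 and 3.99 in TBI (log2 difference -1.59, SE 0.946). The groups were apart in all 3, with TBI+MT pool 2 just below TBI pool 1 in Tac3. Pnoc, the precursor of nociceptin, was the remaining one with 0.991 and 1.59 in TBI+MT (2 of 4 arrays above background), against 1.97 and 1.79 in TBI (log2 difference -0.58, SE 0.843). Genes with values above 0 included Oxt, which encodes oxytocin, with 1.71 and 0.682 in TBI+MT, against 0.258 and 1.18 in TBI (1 of 4 arrays above background) (log2 difference 0.97, SE 1.03). Pdyn and Adcyap1, whose peptides are dynorphin and PACAP, differed by 0.07 and 0.01, Vip, whose peptide marks a class of interneurons, by 0.53 and Penk, which encodes enkephalin, by 1.04.

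Genes that pack and process peptides followed the middle of the named genes. Of 12 genes 9 were measured, 8 with values below 0 and 4 over 2-fold lower, with a median of -0.61 log2 units (-0.09 quantile-normalized). Vgf, a neurotrophin-induced granin, stood at 31.5 and 64.6 in TBI+MT, against 85.8 and 97.7 in TBI (log2 difference -1.02, SE 0.649). Cpe, the carboxypeptidase that trims peptide precursors, stood at 334 and 521 in TBI+MT (1 of 4 spots left out), against 621 and 1246 in TBI. Its spots were saturated on 2 TBI+MT arrays and on all 4 TBI arrays, so no fold is given. Scg2 differed by -0.61 (SE 0.504) and Chga by 0.08. Interneurons are the main hippocampal source of somatostatin and neuropeptide Y. Of 18 further interneuron markers 9 were measured, all 9 with values below 0 but 3 over 2-fold lower and 1 without overlap. After quantile normalization, and likewise with the 75th percentile, 5 of the 9 were below 0. Pvalb, which encodes the calcium-binding protein parvalbumin, stood at 4.23 and 6.16 in TBI+MT, against 11.3 and 15.2 in TBI (log2 difference -1.36, SE 0.704) and was the marker without overlap. Reln, which encodes reelin, had 0.137 and 2.47 in TBI+MT (2 of 4 arrays above background), against 0.677 and 5.97 in TBI (log2 difference -1.79, SE 1.58), and its sign rested on TBI+MT pool 1. Gad1, which makes GABA, stood at 65.3 and 63.8 in TBI+MT, against 59.1 and 92.2 in TBI (-0.19, 0.46 after quantile normalization), and the Calb2 pools overlapped (0.878 and 2.48 in TBI+MT (2 of 4 arrays above background), against 1.62 and 6.68 in TBI). The interneuron list had a median of -0.46 log2 units (-0.36 quantile-normalized).

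**Figure D3:**
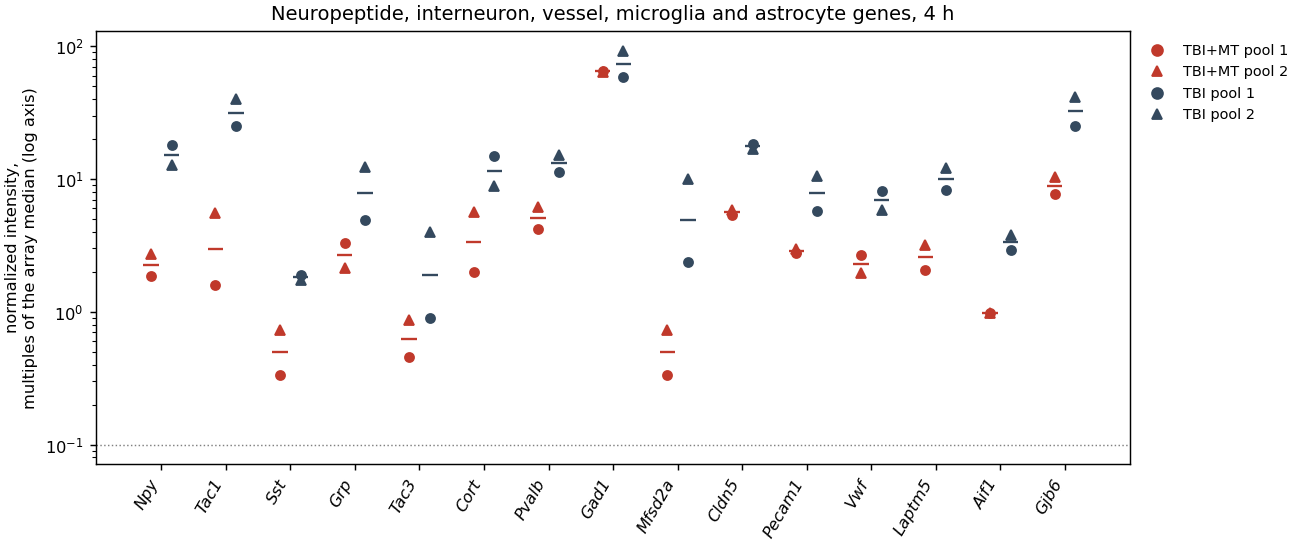
Normalized intensity of 15 genes of the neuropeptide, interneuron, vessel, microglia and astrocyte lists (vertical log axis, multiples of the array median) in TBI+MT pools (left of each pair) and TBI pools (right), with geometric means as bars and the floor of 0.1 as a dotted line. In 14 of the 15 genes both TBI+MT pools were below both TBI pools, the exception being Gad1. The 15 are a selection from their lists. In the whole lists this held for 7 of 15 measured neuropeptide genes and 1 of 9 interneuron markers. It held for 9 of 13 vessel, 4 of 9 microglia and 7 of 10 astrocyte markers, and for 40.7% of the named genes.

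Vessel wall genes had the lowest median of all lists on the median-scaled values, -1.44 log2 units (-0.84 quantile-normalized), with -1.65 to -0.82 over the pairs of pools. Of 13 measured markers 10 had values below 0, 8 stood over 2-fold lower and 9 lay without overlap on the lower side, beside 28.3% and 40.7% of the named genes. Mfsd2a, the lipid transporter of the blood-brain barrier, stood at 0.336 and 0.732 in TBI+MT (2 of 4 arrays above background), against 2.39 and 10.1 in TBI (log2 difference -3.31, SE 0.713). Cldn5, a tight junction protein of brain endothelium, stood at 5.38 and 5.83 in TBI+MT, against 18.4 and 16.9 in TBI (log2 difference -1.66, SE 0.554). Its pools were close within each group, and the groups were well apart. Pecam1, an adhesion molecule of endothelium, stood at 2.79 and 2.95 in TBI+MT, against 5.74 and 10.6 in TBI (log2 difference -1.44, SE 0.574). Abcb1a, a drug efflux pump of the barrier, stood at 0.798 and 0.463 in TBI+MT (2 of 4 arrays above background), against 1.21 and 10.2 in TBI (log2 difference -2.53, SE 1.14). Slc2a1, the glucose transporter of the barrier, stood at 13.4 and 16.3 in TBI+MT, against 28.9 and 58.7 in TBI (log2 difference -1.48, SE 0.648). Vwf, a clotting factor that endothelium stores, stood at 2.69 and 1.96 in TBI+MT, against 8.18 and 5.85 in TBI (log2 difference -1.59, SE 0.861). Members of the list also stood on the other side. Tek, the angiopoietin receptor, had 1.4 and 0.844 in TBI+MT (3 of 4 arrays above background), against 0.916 and 0.286 in TBI (2 of 4 arrays above background) (log2 difference 1.09, SE 0.741), and Cdh5 differed by 0.15. The sham pools stood at 18.95 and 36.6 for Cldn5, above both TBI pools.

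Astrocyte markers stood lower as well, with 9 of 10 measured values below 0, 6 over 2-fold lower, 7 without overlap and a median of -1.13 log2 units (-0.55 quantile-normalized). The counts over 2-fold and without overlap stand beside 28.3% and 40.7% of the named genes. After quantile normalization 3 of the 10 stood over 2-fold lower. Gjb6, a gap junction protein of astrocytes, stood at 7.66 and 10.4 in TBI+MT, against 24.9 and 41.7 in TBI (log2 difference -1.86, SE 0.589). Gja1, the main gap junction protein of astrocytes, stood at 11.9 and 32.7 in TBI+MT, against 44.5 and 85.8 in TBI (log2 difference -1.65, SE 0.857). Both genes had the groups apart. Aqp4, the water channel of astrocyte end feet, stood at 3.35 and 11.3 in TBI+MT, against 11.5 and 43.8 in TBI (log2 difference -1.87, SE 0.917), with TBI+MT pool 2 just under TBI pool 1. Glul, which turns glutamate into glutamine, stood at 156 and 154 in TBI+MT, against 186 and 609.8 in TBI (log2 difference -1.12, SE 0.593). In Glul and Slc1a3 (62.9 and 120.4 in TBI+MT, against 147 and 349 in TBI) the widest step between neighbouring pools was that between the 2 TBI pools. Gfap differed by -0.56 and Fgfr3 by 0.04. Of 9 measured microglia markers 8 had values below 0, but 3 stood over 2-fold lower, with a median of -0.59 log2 units (-0.03 quantile-normalized). Laptm5, a lysosomal protein of blood-derived and microglial cells, stood at 2.06 and 3.198 in TBI+MT, against 8.28 and 12.2 in TBI (log2 difference -1.97, SE 0.574). Aif1, which encodes IBA1, stood at 0.973 and 0.986 in TBI+MT (2 of 4 arrays above background), against 2.91 and 3.81 in TBI (log2 difference -1.77, SE 0.658). C1qb, a chain of the complement component C1q, stood at 0.519 and 0.384 in TBI+MT (1 of 4 arrays above background), against 0.926 and 1.51 in TBI (log2 difference -1.41, SE 0.618). The pools of each group were close in Laptm5 and Aif1. Csf1r, the receptor that microglia need to survive, differed by -0.59 (SE 0.658) and Cx3cr1 by 0.44. Oligodendrocyte markers had a median of -0.44 log2 units (0.21 quantile-normalized), with Cnp at -0.89, Mog at -1.04 and Sox10 on the other side at 1.16 (SE 1.13). Of 7 blood markers 2 were measured, Slc4a1 at -0.16 and Alas2 at 0.09.

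Inflammatory mediators stood lower in TBI+MT with a wide spread between pools. Of 24 genes 13 were measured, 12 with values below 0, 8 over 2-fold lower and 5 without overlap. Among the named genes 28.3% stood over 2-fold lower and 40.7% lay without overlap on this side, so the last count was near the background. Their median was -1.25 log2 units (-0.93 quantile-normalized), but it ran from -2.82 to 0.17 over the pairs of pools. After quantile normalization, and likewise with the 75th percentile, 9 of the 13 mediators were below 0. Cxcl1, a chemokine that attracts neutrophils, stood at 1.32 and 6.21 in TBI+MT, against 10.2 and 61.5 in TBI (log2 difference -3.13, SE 1.15). Ccl4, a chemokine of activated microglia and macrophages, stood at 0.5495 and 1.05 in TBI+MT (2 of 4 arrays above background), against 1.995 and 3.89 in TBI (log2 difference -1.88, SE 0.654). Il18, an inflammasome cytokine, stood at 0.1902 and 1.03 in TBI+MT (2 of 4 arrays above background), against 1.399 and 3.37 in TBI (log2 difference -2.30, SE 0.954). These 3 did not overlap, but Il18 and Ccl4 had their TBI+MT pool 1 near background. Il1b had 1.11 and 3.31 in TBI+MT (2 of 4 arrays above background), against 2.25 and 13.1 in TBI (log2 difference -1.50, SE 0.907) and Ccl7 had 3.05 and 11.7 in TBI+MT, against 5.47 and 82.04 in TBI (log2 difference -1.82, SE 1.14). Both overlapped, since TBI pool 1 was below TBI+MT pool 2. Tnf differed by 0.09. Acute phase and injury genes had a median of -0.31 log2 units (0.15 quantile-normalized), close to that of all probes, with 9 of 14 values below 0. Vim, an intermediate filament of reactive glia and vessels, stood at 3.34 and 2.39 in TBI+MT, against 5.79 and 21.2 in TBI (log2 difference -1.97, SE 0.691). Lcn2, which encodes lipocalin 2, stood at 6.52 and 16.8 in TBI+MT, against 24.8 and 31.4 in TBI (log2 difference -1.42, SE 0.923). Icam1, an adhesion molecule, was on the other side with 3.28 and 2.09 in TBI+MT, against 2.07 and 0.796 in TBI (2 of 4 arrays above background) (log2 difference 1.03, SE 0.6899).

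Respiratory chain genes stood below the TBI level almost without exception, by about 2-fold on the median-scaled values and by less after quantile normalization. Of 25 measured complex I genes 24 had values below 0, 12 over 2-fold and 21 without overlap, with a median of -0.98 log2 units (-0.46 quantile-normalized). For complexes II, III and IV these counts were 24, 13 and 21 of 24, with a median of -1.10 log2 units (-0.49 quantile-normalized). For the ATP synthase they were 12, 7 and 10 of 12, with a median of -1.04 log2 units (-0.46 quantile-normalized). After quantile normalization the counts over 2-fold lower were 2 of 25, 5 of 24 and 1 of 12, in the same order. No member stood over 2-fold higher. The shares without overlap were above the background of 40.7% of the named genes, and no member passed the test. Ndufa2, a subunit of complex I, stood at 4.14 and 7.86 in TBI+MT, against 12.2 and 32.6 in TBI (log2 difference -1.80, SE 0.799). Cox8a of complex IV stood at 15.6 and 21.7 in TBI+MT, against 28.2 and 62.3 in TBI (log2 difference -1.19, SE 0.599). Atp5pd, a stalk subunit of the ATP synthase, stood at 93.3 and 125 in TBI+MT, against 206 and 374 in TBI (log2 difference -1.36, SE 0.775). In all 3 the gap between the 2 TBI pools was as wide as that between TBI pool 1 and TBI+MT pool 2 or wider. The fusion gene Mfn2 stood at 5.38 and 26.8 in TBI+MT, against 34.9 and 73.2 in TBI (log2 difference -2.08, SE 1.19) and the fission gene Dnm1l at 1.44 and 3.05 in TBI+MT, against 3.71 and 12.1 in TBI (log2 difference -1.68, SE 0.942), in a list of 15 genes with a median of -1.04 log2 units (-0.47 quantile-normalized). Mfn1, also a fusion gene, was on the other side at 0.41 (SE 0.8601), and at -0.22 without TBI pool 2.

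Antioxidant genes had all 20 measured values of 26 below 0, 12 over 2-fold and 14 without overlap, with a median of -1.09 log2 units (-0.56 quantile-normalized) and -1.81 to -0.38 over the pairs of pools. Of the named genes 28.3% stood over 2-fold lower and 40.7% lay lower without overlap. After quantile normalization 18 of the 20 antioxidant genes were below 0 and 8 over 2-fold lower. Sod3, the extracellular superoxide dismutase, stood at 1.705 and 3.13 in TBI+MT, against 4.69 and 19.8 in TBI (log2 difference -2.06, SE 0.695). Gclm, the regulatory subunit of the enzyme that starts glutathione synthesis, stood at 0.865 and 2.46 in TBI+MT (2 of 4 arrays above background), against 4.11 and 8.79 in TBI (log2 difference -2.04, SE 0.782). Nfe2l2, which encodes its activator NRF2, stood at 0.724 and 4.04 in TBI+MT (2 of 4 arrays above background), against 4.63 and 13.4 in TBI (log2 difference -2.20, SE 1.004). Srxn1, which repairs peroxiredoxins, stood at 1.38 and 3.803 in TBI+MT (3 of 4 arrays above background), against 5.07 and 7.91 in TBI (log2 difference -1.47, SE 0.679). None of these 4 overlapped, although TBI+MT pool 2 nearly met TBI pool 1 in Nfe2l2. Heat shock and chaperone genes had 9 of 11 values below 0 and 7 over 2-fold lower, with a median of -1.06 log2 units (-0.59 quantile-normalized). Bag3, a co-chaperone of HSP70, stood at 1.75 and 7.66 in TBI+MT, against 9.42 and 24.7 in TBI (log2 difference -2.06, SE 1.16). Hsp90ab1 was on the other side with 7.87 and 14.5 in TBI+MT, against 17.2 and 1.21 in TBI (log2 difference 1.23, SE 1.002), and it was -0.69 without TBI pool 2. Endoplasmic reticulum stress genes had a median of -0.79 log2 units (-0.25 quantile-normalized), 13 of 15 with values below 0. Ddit3, which encodes CHOP, stood at 17.3 and 28.8 in TBI+MT, against 43.7 and 76.7 in TBI (log2 difference -1.37, SE 0.816). Atf4, its activator, stood at 4.71 and 16.3 in TBI+MT, against 26.7 and 29.1 in TBI (log2 difference -1.67, SE 0.979).

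Genes of protein synthesis and breakdown followed the same side. Cytosolic ribosomal protein genes had 37 of 41 values below 0, 21 over 2-fold lower and 29 without overlap, with a median of -1.02 log2 units (-0.60 quantile-normalized). Rps27 stood at 15.1 and 30.5 in TBI+MT, against 52.2 and 98.9 in TBI (log2 difference -1.74, SE 0.703). Rps20 stood at 20.9 and 38.7 in TBI+MT, against 60.9 and 145 in TBI (log2 difference -1.73, SE 0.8104). Ribosomal protein genes have many processed pseudogenes, so their probes may take up other copies. Proteasome genes had all 29 measured values of 33 below 0, 13 over 2-fold lower and 18 without overlap, with a median of -0.83 log2 units (-0.47 quantile-normalized). Psmd9, an assembly chaperone of the proteasome, stood at 2.07 and 5.02 in TBI+MT, against 7.504 and 10.9 in TBI (log2 difference -1.49, SE 0.675). Psmb4, a core subunit, stood at 8.62 and 12.99 in TBI+MT, against 19.1 and 29.98 in TBI (log2 difference -1.18, SE 0.592). Both lists had a median below 0 after quantile normalization as well, with 8 of 41 and 5 of 29 members over 2-fold lower. In the proteasome list 23 of the 29 were then below 0. Among the named genes, on the median-scaled values, 78.1% were below 0, 28.3% stood over 2-fold lower and 40.7% lay lower without overlap.

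Cell death genes were close to the named genes as a whole. Of 44 genes 32 were measured, 21 with values below 0, 10 over 2-fold lower and 1 over 2-fold higher, with a median of -0.53 log2 units (-0.11 quantile-normalized). Siva1, a death domain partner of CD27, stood at 0.172 and 0.433 in TBI+MT (1 of 4 arrays above background), against 0.805 and 2.49 in TBI (log2 difference -2.38, SE 0.681). Ripk1, a kinase of TNF receptor signalling, stood at 0.149 and 0.646 in TBI+MT (2 of 4 arrays above background), against 0.802 and 2.42 in TBI (log2 difference -2.16, SE 0.9903). Birc3, an inhibitor of apoptosis that NF-κB induces, stood at 0.667 and 2.93 in TBI+MT (2 of 4 arrays above background), against 3.43 and 6.604 in TBI (log2 difference -1.77, SE 0.752). Genes known to promote and to restrain cell death were thus both among the lower ones. Cycs, which encodes cytochrome c, stood at 3.48 and 12.1 in TBI+MT, against 17.4 and 33.7 in TBI (log2 difference -1.90, SE 1.04). The BCL2 family genes Bax and Bad differed by -0.48 and 0.07, and Casp9 by 0.51 (SE 0.562), or -0.22 without TBI pool 2. Genes of the p53 pathway had all 12 measured values below 0, with a median of -0.81 log2 units (-0.50 quantile-normalized). Below 0 were 10 of the 12 after quantile normalization and 8 with the 75th percentile. Cdkn1a, which arrests the cell cycle, stood at 5.34 and 15.7 in TBI+MT, against 19.99 and 29.7 in TBI (log2 difference -1.41, SE 0.988). Ccng2, a cyclin that restrains growth, stood at 4.45 and 17.4 in TBI+MT, against 21.8 and 37.5 in TBI (log2 difference -1.70, SE 1.02).

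Synaptic genes lay near or above the middle of the named genes. Synaptic vesicle and SNARE genes had 17 of 23 values below 0, 4 over 2-fold lower and 3 over 2-fold higher, with a median of -0.52 log2 units (-0.08 quantile-normalized). Sv2b, a vesicle glycoprotein, stood at 12.1 and 24.2 in TBI+MT, against 42.8 and 97.5 in TBI (log2 difference -1.91, SE 0.939). Syn1, which tethers vesicles, was higher without overlap at 4.32 and 2.56 in TBI+MT, against 2.07 and 2.03 in TBI (log2 difference 0.70, SE 0.427). Syt4, an activity-induced synaptotagmin, was also higher without overlap at 46.6 and 50.6 in TBI+MT, against 35.8 and 5.33 in TBI (log2 difference 1.81, SE 0.944), and most of its gap came from TBI pool 2. Ionotropic glutamate receptor genes and their scaffolds had all 14 values below 0 but 2 over 2-fold lower, with a median of -0.64 log2 units (-0.29 quantile-normalized). After quantile normalization, and likewise with the 75th percentile, 8 of the 14 were below 0. Gria2, the AMPA receptor subunit that blocks calcium entry, stood at 133 and 190.5 in TBI+MT, against 212 and 413 in TBI (log2 difference -0.89, SE 0.733). Its groups did not overlap, and its gap was smaller than that between the TBI pools. Grin2a, an NMDA receptor subunit, had 0.633 and 1.43 in TBI+MT (2 of 4 arrays above background), against 1.15 and 2.72 in TBI (log2 difference -0.89, SE 0.671). Metabotropic receptors had a median of 0.03 log2 units (0.29 quantile-normalized), or -0.23 to 0.35 without 1 pool, with Grm5 at 0.14 and Grm3 at -0.05. Among GABA receptor genes Gabra5, a subunit of extrasynaptic receptors in the hippocampus, stood at 23.6 and 34.6 in TBI+MT, against 44.8 and 93.9 in TBI (log2 difference -1.18, SE 0.5099). Gabbr2, a subunit of the metabotropic GABA receptor, differed by -0.71 (SE 0.684), Gabrb1 by 0.63 (SE 0.929) and Gabra4 by 0.26, so the family lay on both sides. Potassium channel genes were split, with 16 of 29 values below 0, 3 over 2-fold lower and 1 over 2-fold higher, and a median of -0.17 log2 units (0.16 quantile-normalized). Kcnd3, an A-type channel, stood at 36.2 and 11.9 in TBI+MT, against 18.02 and 2.22 in TBI (log2 difference 1.71, SE 0.982). Kcnma1, a calcium-activated channel, stood at 8.82 and 30.5 in TBI+MT, against 36.03 and 46.3 in TBI (log2 difference -1.32, SE 1.04). The Kcnd3 pools overlapped, and the nearest pools of Kcnma1 were close.

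In the calcium pathway 20 of 22 measured genes of calmodulin, calcineurin and phospholipase C had values below 0, 11 over 2-fold. Their median was -1.004 log2 units (-0.47 quantile-normalized). After quantile normalization 2 stood over 2-fold lower and 1 over 2-fold higher. Calm3, a calmodulin gene, stood at 146 and 140.1 in TBI+MT, against 209 and 662 in TBI (log2 difference -1.38, SE 0.627). The TBI+MT pools were nearly equal, and TBI pool 2 stood apart. Camk2g, a calcium and calmodulin-dependent kinase subunit, was on the other side with 17.4 and 16.3 in TBI+MT, against 18.5 and 4.68 in TBI (log2 difference 0.86, SE 0.764), and TBI pool 2 was the low one there. The cyclic AMP, protein kinase A and CREB list had a median of -0.58 log2 units (-0.04 quantile-normalized), with 16 of 18 values below 0 and 2 over 2-fold lower. Ppp1r1b, which encodes the phosphatase inhibitor DARPP-32, stood at 0.292 and 1.19 in TBI+MT (2 of 4 arrays above background), against 1.71 and 3.99 in TBI (log2 difference -2.15, SE 0.879), and the kinase subunit gene Prkar1a at 205 and 287 in TBI+MT, against 319.9 and 552 in TBI (log2 difference -0.79, SE 0.581). Both genes had the 2 groups apart, with TBI pool 2 highest. PI3K, AKT and mTOR genes had a median of -0.64 log2 units (-0.16 quantile-normalized). Pik3cd, a PI3K catalytic subunit of immune cells, stood at 2.06 and 2.56 in TBI+MT, against 3.66 and 10.1 in TBI (log2 difference -1.41, SE 0.577). Akt2, a kinase of insulin signalling, stood at 0.411 and 0.6697 in TBI+MT (2 of 4 arrays above background), against 1.01 and 1.602 in TBI (log2 difference -1.28, SE 0.638). The pools of both genes were apart. Pdpk1, which activates AKT, had 9.43 and 14.5 in TBI+MT, against 14.3 and 0.145 in TBI (2 of 4 arrays above background). Its difference of 3.03 (SE 1.67) rested on TBI pool 2, and it was -0.28 without that pool. Among neurotrophic factor genes, Gfra2, the receptor of neurturin, was at least 5.82-fold lower, with 0.264 and 0.128 in TBI+MT (0 of 4 arrays above background), against 4.33 and 2.66 in TBI. Ntrk2, the BDNF receptor, stood at 4.61 and 11.3 in TBI+MT, against 18.5 and 17.99 in TBI (log2 difference -1.34, SE 0.753). Ntrk3, the receptor of the neurotrophin NT3, stood at 44.8 and 35.3 in TBI+MT, against 29.1 and 34.6 in TBI (0.32). Receptors of this family thus stood on both sides. Cholesterol synthesis genes had all 17 measured values below 0, 5 over 2-fold, and a median of -0.78 log2 units (-0.18 quantile-normalized), with Insig1, a sterol sensor, at 10.7 and 30.2 in TBI+MT, against 44.9 and 85.4 in TBI (log2 difference -1.78, SE 1.08). Below 0 were 13 of the 17 after quantile normalization and 11 with the 75th percentile.

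A custom pathway that the study put together from these samples has 10 genes that were matched to the files by symbol, and 1 further entry that was not and is not analysed here. The 10 were all below TBI, 8 of them over 2-fold, with a median of -1.25 log2 units (-0.70 quantile-normalized) and -2.17 to -0.36 over the pairs of pools. Since the list was chosen on these samples, its direction is not independent evidence. Besides Npy and Sst it holds Prdx3, a mitochondrial peroxidase, with 2.297 and 7.301 in TBI+MT, against 9.67 and 16.2 in TBI (log2 difference -1.61, SE 0.955), and Opa1, which shapes the inner mitochondrial membrane, with 8.05 and 22.6 in TBI+MT, against 27.8 and 27.5 in TBI (log2 difference -1.04, SE 0.626). It also holds Clta, a clathrin light chain, with 13.4 and 38.3 in TBI+MT, against 54.02 and 66.97 in TBI (log2 difference -1.41, SE 0.953). Opa1 had TBI pools that were nearly equal and TBI+MT pools that were far apart.

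**Figure D4:**
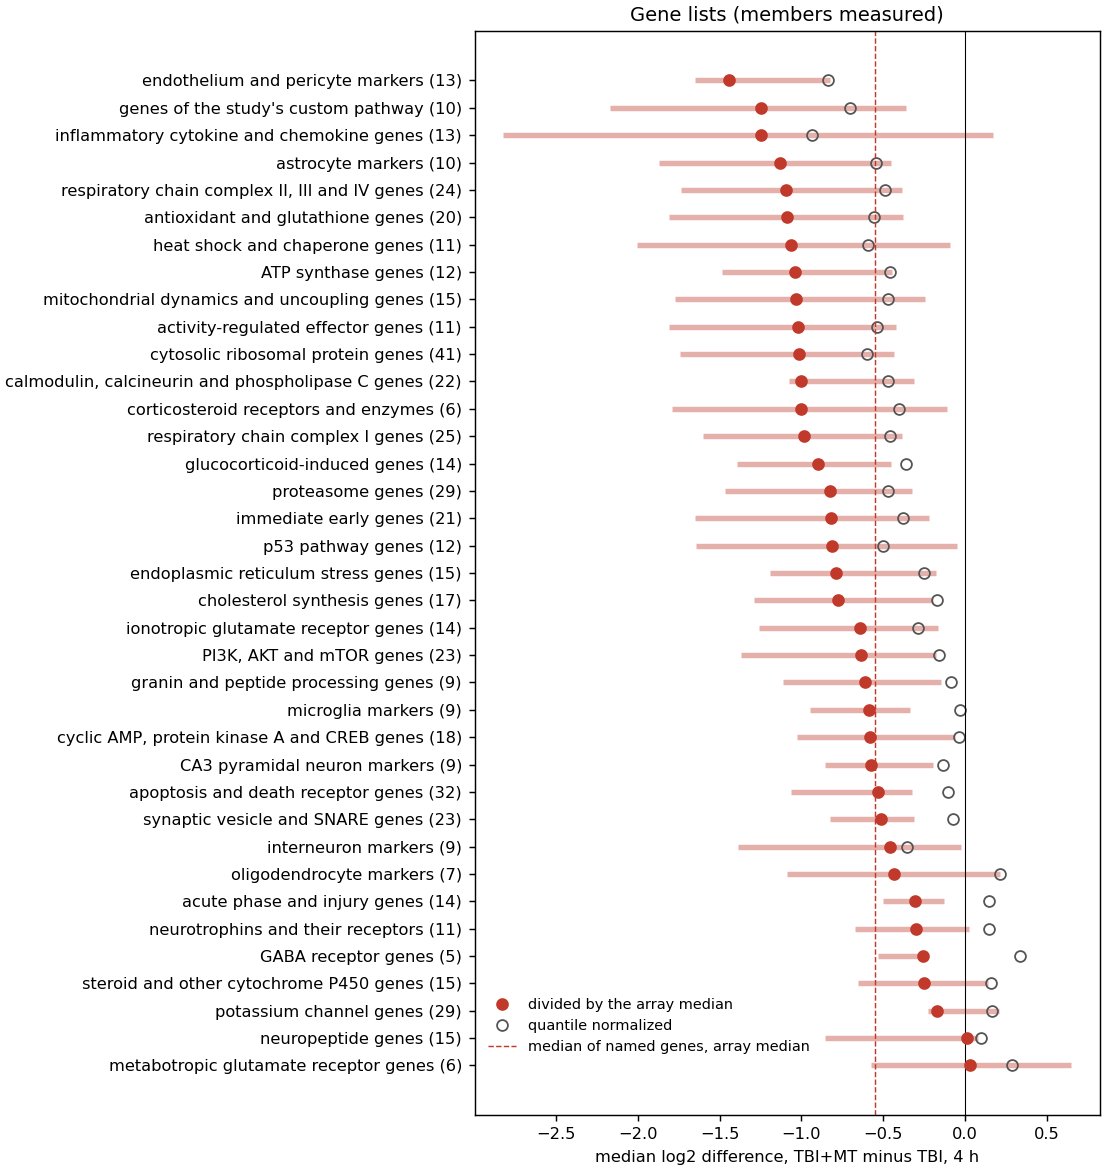
Median log2 difference between TBI+MT and TBI at 4 h (horizontal axis) of each gene list with at least 5 measured members (one to a line, number measured in brackets), with filled points for median-scaled values, bars for their range over the 4 pairs of pools, open points for quantile-normalized values and a dashed line for the median of the named genes at -0.55. On the median-scaled values the vessel markers stood lowest at -1.44 and the metabotropic glutamate receptor genes highest at 0.03, and on the quantile-normalized values the inflammatory mediators stood lowest at -0.93 and the GABA receptor genes highest at 0.34.

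Among the genes with the smallest p outside these lists, Cdh13, a cadherin that binds adiponectin, stood at 3.87 and 8.77 in TBI+MT, against 47.7 and 80.4 in TBI (log2 difference -3.41, SE 0.942). Cep350, a centrosomal protein, stood at 0.701 and 0.114 in TBI+MT (1 of 4 arrays above background), against 2.19 and 7.21 in TBI (log2 difference -3.81, SE 1.17). Both genes had the groups well apart. Nfkbil1 stood at 0.2998 and 1.32 in TBI+MT (2 of 4 arrays above background), against 2.65 and 4.56 in TBI (log2 difference -2.47, SE 0.732). Crb3, a polarity protein, stood at 0.255 and 0.217 in TBI+MT (1 of 4 arrays above background), against 0.581 and 2.796 in TBI (log2 difference -2.44, SE 0.744). Ap2a1, a subunit of the clathrin adaptor AP-2, stood at 0.631 and 0.725 in TBI+MT (2 of 4 arrays above background), against 1.46 and 3.48 in TBI (log2 difference -1.74, SE 0.515). None of these 3 overlapped either, though their levels in TBI+MT were close to background. On the higher side Phc3, a polycomb protein, stood at 12.1 and 15.1 in TBI+MT, against 0.176 in TBI pool 2. Its spots in TBI pool 1 were left out as irregular or masked, so the fit rests on 1 TBI pool. It was at least 14.98-fold higher (adjusted p = 0.195 from limma). Arpc5l, a subunit of the actin nucleator ARP2/3, stood at 2.21 and 1.68 in TBI+MT, against 0.676 and 0.403 in TBI (3 of 4 arrays above background) (log2 difference 1.88, SE 0.495). Bcl11b, a zinc finger factor of neuron identity, stood at 5.66 and 6.26 in TBI+MT, against 2.26 and 0.494 in TBI (2 of 4 arrays above background) (log2 difference 2.49, SE 0.764). Acvr1c, the activin receptor ALK7, stood at 8.78 and 11.7 in TBI+MT, against 4.39 and 0.53 in TBI (2 of 4 arrays above background) (log2 difference 2.73, SE 0.793). Pools of both groups were apart in these 3 genes, but the 2 TBI pools of Bcl11b and Acvr1c also differed widely. The genes Avil, Abhd18, Kat6b, Ttpa, Tmem125 and Meg3 were near background on all 4 TBI arrays and were at least 4.46, 3.18, 2.92, 2.79, 2.48 and 1.89-fold higher by the group means. The lowest signals above background on the arrays of TBI pool 2 were 0.839 and 0.973. TBI+MT pool 2 lay below both in Kat6b (5.75 and 0.536 in TBI+MT) and Tmem125 (2.72 and 0.814 in TBI+MT). The bounds of these 2 genes thus rest on TBI+MT pool 1. In Meg3 (1.5 and 0.857 in TBI+MT) that pool lay between the 2 signals. The 2 remaining ones, the DNA repair genes Nhej1 and Primpol, stood at 18.3 and 7.14 in TBI+MT, against 4.72 and 0.395 in TBI (2 of 4 arrays above background) (log2 difference 3.07, SE 0.997) for Nhej1 and at 5.76 and 0.986 in TBI+MT, against 0.762 and 0.1 in TBI (2 of 4 arrays above background) (log2 difference 3.11, SE 1.02) for Primpol.

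By the replicate rule of the study, under which the 4 arrays of each group lie within 2-fold, 5696 probes passed, 330 of them over 2-fold lower and 57 over 2-fold higher. Of 2658 named genes that passed it and were above background on all 8 arrays, 183 were over 2-fold lower and 14 over 2-fold higher. The lower ones with the largest differences were Npy, Laptm5, Dsc2, Gjb6, Tmem80, Dync2i2, Cldn5, Asrgl1, Naca and Vwf. Dsc2, a desmosomal cadherin, stood at 1.43 and 1.196 in TBI+MT, against 3.85 and 6.37 in TBI (log2 difference -1.92, SE 1.33). Naca, a chaperone of nascent chains, stood at 8.92 and 15.3 in TBI+MT, against 26.8 and 46.3 in TBI (log2 difference -1.59, SE 0.989). Besides the neuropeptide gene Npy, these 10 hold the vessel markers Cldn5 and Vwf, the astrocyte marker Gjb6 and the microglia marker Laptm5. On the higher side P3h3, which hydroxylates collagen prolines, stood at 45.6 and 85.4 in TBI+MT, against 18.2 and 20.8 in TBI (log2 difference 1.68, SE 0.631, 2.37 after quantile normalization). Pdia2, a protein disulfide isomerase, stood at 6.13 and 5.34 in TBI+MT, against 1.77 and 1.22 in TBI (log2 difference 1.96, SE 0.869). Tamalin, a scaffold of metabotropic glutamate receptors, stood at 27.5 and 17.1 in TBI+MT, against 9.96 and 5.63 in TBI (log2 difference 1.53, SE 0.598). Nod1, a sensor of bacterial cell walls, stood at 21.7 and 13.4 in TBI+MT, against 7.89 and 4.85 in TBI (log2 difference 1.46, SE 0.562). In all 4 the lower TBI+MT pool was above the higher TBI pool. Clrn3, Stk40, Ggact, Ctnnal1, Glis1 and Tbl1x completed this side, with differences of 1.29, 1.24, 1.18, 1.16, 1.08 and 1.08.

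When slide run entered the model as a block, the comparison rested on TBI pool 2, the only TBI pool of the run that holds both TBI+MT pools. That fit called 49 of 17619 probes (0.278%), 6 lower and 43 higher, and the fit without TBI pool 1 called the same 49. Of these probes 18 have a gene name, with adjusted p-values of 0.00679 to 0.0494 from limma. TBI+MT pools were apart from both TBI pools in 26 of the called probes. Over all probes with 4 values, 33.6% were apart on the lower side and 8.14% on the higher side. The called probes were chosen by their distance from TBI pool 2, so the 26 cannot be read against these shares. In 39 of the 43 higher probes TBI pool 2 stood under 0.5 of the array median, and in 20 of the 43 TBI pool 1 was above the lower TBI+MT pool. Retreg3, a receptor of selective autophagy of the endoplasmic reticulum, stood at 8.35 and 22.4 in TBI+MT, against 20.3 and 0.1704 in TBI (2 of 4 arrays above background). Plpp3, a lipid phosphatase, stood at 9.992 and 10.4 in TBI+MT, against 10.1 and 0.164 in TBI (2 of 4 arrays above background), and Hs3st2, which sulfates heparan chains in neurons, at 6.54 and 7.73 in TBI+MT, against 15.1 and 0.1 in TBI (2 of 4 arrays above background). In all 3 genes TBI pool 1 stood within or above the TBI+MT range and TBI pool 2 at or near the floor. Man2a2, a Golgi mannosidase, stood at 78.5 and 27.3 in TBI+MT, against 23.5 and 0.154 in TBI (2 of 4 arrays above background), and Opcml, a cell adhesion molecule of neurons, at 4.86 and 2.86 in TBI+MT, against 5.31 and 0.1 in TBI (2 of 4 arrays above background). Aars2, Mtrfr and Ctdspl shared the low value in TBI pool 2, with 7.33 and 6.67 in TBI+MT, against 9.56 and 0.391 in TBI (2 of 4 arrays above background) for the mitochondrial alanyl-tRNA synthetase gene Aars2. Without TBI pool 2 the differences of Retreg3, Opcml, Aars2, Mtrfr, Ctdspl and Hs3st2 were below 0. On the lower side Ttr, which encodes transthyretin and is most abundant in choroid plexus, stood at 0.184 and 0.126 in TBI+MT (0 of 4 arrays above background), against 0.1895 and 144 in TBI (2 of 4 arrays above background). Supt16h, a histone chaperone, stood at 0.256 and 0.556 in TBI+MT (1 of 4 arrays above background), against 0.122 and 34.3 in TBI (2 of 4 arrays above background), and Gramd2b at 0.769 and 0.826 in TBI+MT (2 of 4 arrays above background), against 0.726 and 14.7 in TBI. Again TBI pool 2 alone stood apart. TBI pool 1 lay on the same side of both TBI+MT pools as TBI pool 2 in Acvr1c, Mfsd2a, Man2a2 and Ttr, narrowly so in Ttr and Man2a2. The difference within the run was -4.35 for Mfsd2a (adjusted p = 0.0432 from limma) and 4.26 for Acvr1c (adjusted p = 0.0238 from limma).

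**Figure D5:**
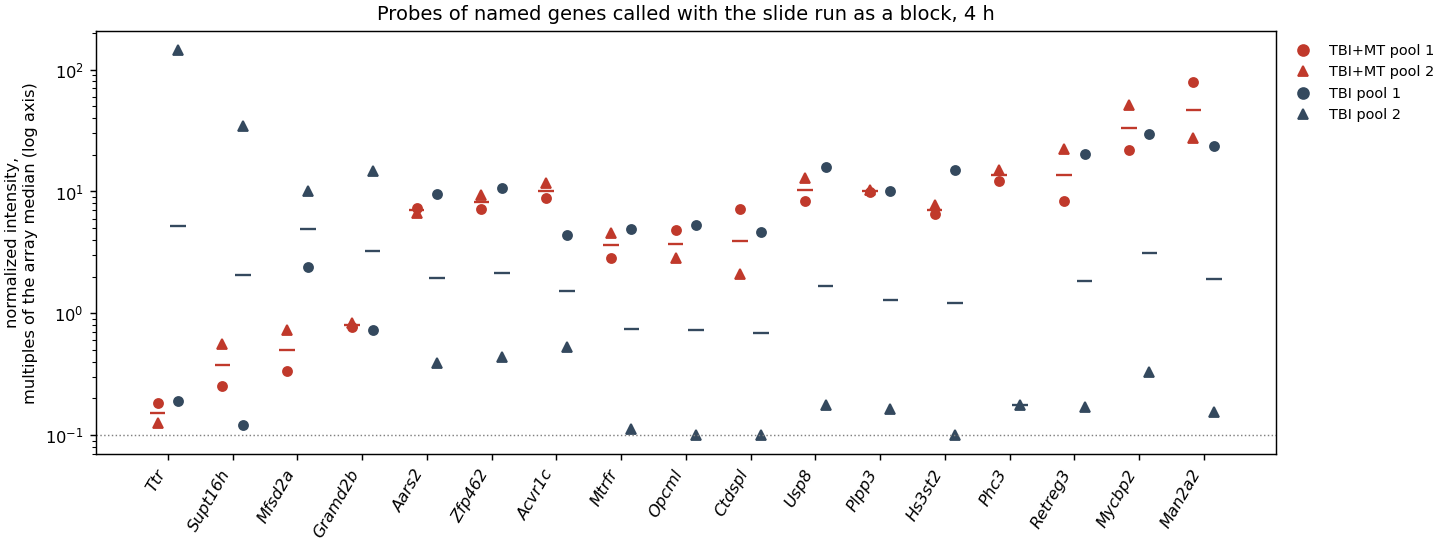
Normalized intensity (vertical log axis, multiples of the array median) of 17 of the 18 probes of named genes called when slide run was a block, in TBI+MT pools (left of each pair) and TBI pools (right), with geometric means as bars and the floor of 0.1 as a dotted line. In most of them TBI pool 2 stood apart from the other 3 pools, and Phc3 has no value in TBI pool 1.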

How the data were processed

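RNA of laser-captured CA3 cells, pooled over rats and amplified, was hybridized to CodeLink 1-colour arrays, 2 arrays to a pool. The deposited files hold the spot intensity of the scanner software and its quality flags, and the authors' series table holds processed intensity values, which served as an alternative. From the deposited intensity each array was divided by its median, with a floor of 0.1, before logarithms (log2). Spots marked irregular or masked did not enter. A probe was kept where every array of 1 or more of the 8 groups had it above background. Duplicate arrays were averaged to the pool, so that p-values measure the spread between pools. All 8 groups entered 1 model in limma 3.58.1 (R 4.3.3, with the data.table package, version 1.17.8), with Benjamini-Hochberg adjustment over 17619 probes and a threshold of 0.05. The small number of pools sets the precision.

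Gene names came from the platform annotation, with symbols updated through RefSeq: 16878 probes had 1 gene, 182 had several and were not named, 159 were named from the description column, and 16812 stayed without a name. A gene is given by the probe with the highest mean. A gene near background on all arrays of a group has only a bound (at least N-fold), computed from the brighter group's mean and the lowest signal above background on each array of the dimmer group, or the probe's own value where that is higher. Named are the 12 genes on each side with the smallest p, the 10 on each side with the largest difference under the study's replicate filter, up to 10 on each side called with the slide run as a block or without a pool, and in each list the 4 members with the smallest p and the first on the opposite side. A few genes that this rule selects are not reported here. The members and lists were chosen with earlier results of these data known. Outside this rule, chosen for their role after their values were seen, are Abcb1a, Adcyap1, Bad, Bax, Btg2, Ccl7, Cdh5, Clta, Cort, Cycs, Cyp46a1, Gabra4, Gad1, Gfap, Glul, Gria2, Grm3, Ier2, Il1b, Jund, Klf9, Oxt, Pdyn, Penk, Pnoc, Rgs2, Slc17a7, Tac3, Tsc22d3 and Vip. Alternatives were quantile normalization, the 75th percentile, other floors, filters and groups in the fit, single arrays, blocks by pool number and by slide run, and each pool left out. The slide runs were read from the file headers and taken as batches, which no source states. The test of whether the difference at 4 h was the same at 24 h called 0 of 17593 probes, with 821 at an unadjusted p under 0.05 (limma). At 24 h the TBI+MT and TBI pools were on slides of different runs. Treatment and run cannot be told apart there, and 0 calls from so few pools do not show sameness.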

Additional observations from a re-analysis of the deposited data

How the results depend on the processing

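No probe was called under any of the 19 alternative settings but 3: the fit of the 2 groups alone (3 probes), the fit with the slide run as a block (49) and that without TBI pool 1 (49). Leaving out a single pool gave 0 to 49 called probes, 1321 to 6998 probes over 2-fold lower, 703 to 2231 over 2-fold higher and a median difference of -0.61 to -0.25. The probes over 2-fold lower numbered 1922 after quantile normalization, 1816 with the 75th percentile, 2873 with a background filter on all 8 arrays and 330 under the study's replicate filter. Those over 2-fold higher numbered 2201 with the 75th percentile, 2558 with no background filter, 219 with the filter on all 8 arrays, 2231 with the slide run as a block and 57 under the replicate filter. The median difference was -0.0077 after quantile normalization and 0.036 with the 75th percentile. For these changes the cause was not tested. With the pool number as a replicate block 0 probes were called, 4417 stood over 2-fold lower and 1446 over 2-fold higher, and the median was -0.40. Pools of the same number in TBI+MT and TBI did not deviate together (r = -0.00078 over probes). With a single pair of pools in each group, this does not settle whether pools of the same number belong together. The normexp background correction was not run, since the scanner tables used here hold no spot mean and background.

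Over the alternative settings, 4301 values of single-gene differences kept their direction and side of the threshold, and 31 more kept their direction and passed it. After quantile normalization, the sign changed in Csf1r (0.021), Slc4a1 (0.089), Gabbr1 (0.34), Cyp46a1 (0.00086), Gad1 (0.46), Gfap (0.0066), Grm3 (0.58), Slc17a7 (0.23) and Tsc22d3 (0.084). With the 75th percentile, the sign changed in Slc4a1 (0.28), Gabbr1 (0.18), Btg2 (0.304), Gad1 (0.25), Grm3 (0.39), Ier2 (0.21), Slc17a7 (0.058) and Tsc22d3 (0.32). On array a alone, the sign changed in Btg2 (0.038), Grm3 (0.059) and Tsc22d3 (0.199). On array b alone, the sign changed in Chga (-0.012), Alas2 (-0.25) and Adcyap1 (-0.069). With the slide run as a block, the sign changed in Chga (-0.102), Fgfr3 (-0.087), Cx3cr1 (-0.039), Alas2 (-0.38), Bcl6 (-0.022), Tnf (-0.063), Grm4 (0.041), Grm5 (-0.17), Grm7 (-0.14), Adcyap1 (-0.305), Bad (-0.34), Cdh5 (-0.21), Ier2 (0.16), Oxt (-0.13), Pdyn (-0.84), Tsc22d3 (0.36) and Vip (-0.14). Over the settings that leave out 1 pool, these genes had differences on both sides of 0: Supt16h -6.51 to 1.62, Gramd2b -4.21 to 0.13, Retreg3 -0.57 to 6.32, Opcml -0.51 to 5.22, Aars2 -0.45 to 4.16, Mtrfr -0.44 to 4.997, Ctdspl -0.26 to 5.28, Hs3st2 -1.08 to 6.15, Chga -0.17 to 0.33, Reln -3.88 to 0.30, Cnr1 -2.13 to 0.17, Nectin3 -2.07 to 0.065, Fgfr3 -0.14 to 0.21, Cx3cr1 -0.039 to 0.92, Slc4a1 -0.44 to 0.11, Alas2 -0.38 to 0.57, Fkbp4 -0.37 to 4.09, Bcl6 -0.23 to 0.80, Cyp26b1 -3.34 to 0.38, Tnf -0.36 to 0.54, Hsp90ab1 -0.69 to 3.14, Dnajb9 -0.49 to 1.20, Casp9 -0.22 to 1.24, Ndufa9 -0.18 to 0.67, Mfn1 -0.22 to 1.03, Grm4 -1.55 to 0.23, Grm5 -0.19 to 0.47, Grm7 -0.14 to 0.39, Gabrb1 -0.57 to 1.83, Adcy9 -0.24 to 1.85, Camk2g -0.14 to 1.85, Pdpk1 -0.28 to 6.34, Adcyap1 -0.30 to 0.33, Bad -0.34 to 0.49, Bax -1.05 to 0.084, Btg2 -0.38 to 0.11, Ccl7 -3.78 to 0.13, Cdh5 -0.21 to 0.51, Gad1 -0.51 to 0.13, Grm3 -0.50 to 0.40, Ier2 -0.88 to 0.43, Klf9 -0.021 to 0.23, Oxt -0.13 to 2.06, Pdyn -0.84 to 0.98, Penk -1.42 to 3.50, Tsc22d3 -0.60 to 0.36 and Vip -0.14 to 1.20. The median of the blood markers ran from -0.41 to 0.34 over these settings and that of the potassium channel genes from -0.32 to 0.060. With 2 pools a group, a setting without 1 pool assumes that the lone pool varies like those of the other groups.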
